A study of Mus musculus with 9 samples.

Results

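The TIM and TOM genes encode the machinery that carries proteins made in the cytosol into mitochondria. They were taken as the protein-coding rows of the deposited expression table whose symbol begins with Timm or Tomm followed by a digit, which gave 25 of 54532 rows. Of these 25, 22 had a mean of at least 1 FPKM (reads relative to gene length and library size) over the 9 libraries and were tested together with all other such genes, 17266 in all. Tomm40l, Tomm6 and Timm10b were too low to be tested and are described by their values.

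The libraries came from mouse primary cells labelled male germ cells, titled spermatocytes and marked PD 35. There were 3 wild-type controls, 3 ClpP conditional knockouts (ClpP cKO) and 3 ClpX conditional knockouts (ClpX cKO), in which Stra8-Cre, a recombinase active in male germ cells, deleted the gene. ClpP degrades proteins in the mitochondrial matrix, and its partner ClpX unfolds substrates for it at the cost of ATP. The labels do not say whether the controls carried the Cre or a floxed allele, how cells were isolated, or whether replicates came from separate animals, so p-values measure the spread between these libraries, which may be technical.

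The translocase of the outer membrane (TOM) is the entry gate for nearly all mitochondrial proteins: receptors bind the incoming chain and hand it to a channel. Proteins with a cleavable presequence then pass through the TIM23 complex of the inner membrane, with a motor on the matrix side pulling them in. Multispanning carrier proteins are instead escorted by small TIM chaperones across the intermembrane space to the TIM22 complex. Male germ cells are known for expressing testis forms of several mitochondrial proteins and for rebuilding their mitochondria into the sperm midpiece sheath.

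Library totals lay between 14334436 and 17021685 gene reads, both in controls. Clpp was at 8.46 to 9.36 FPKM in the controls and 3.69 to 6.15 in ClpP cKO, and Clpx was at 54.7 to 59.3 in the controls and 11.3 to 15.6 in ClpX cKO. Each also differed from the controls in the other knockout, with Clpx lower in ClpP cKO (36.0 to 40.3) and Clpp higher in ClpX cKO (12.5 to 14.1). On the first principal component of all tested genes, Control 3 lay nearer to the knockouts than the other controls did, and ClpX cKO 1 nearer to ClpP cKO than the other ClpX cKO libraries did. The libraries also differed in markers of cell types and stages. All 15 elongating spermatid markers fell in each knockout, with summed levels of 8507 to 18497 FPKM in control, 4912 to 5855 in ClpP cKO and 1818 to 2796 in ClpX cKO. All 13 tested Sertoli cell markers rose in each, with the 14 listed markers summing to 664 to 690, 935 to 1061 and 1175 to 1669 FPKM. The other somatic lists were less uniform. Of 8 tested Leydig cell markers 0 rose in ClpP cKO and 2 in ClpX cKO. Of 8 tested peritubular and stromal markers 2 and 5 rose, and of 9 tested immune cell markers 3 and 8 rose. In these 3 lists 0 fell. Round spermatid markers fell in 11 of 12 cases in ClpP cKO and 12 of 12 in ClpX cKO. Of 12 pachytene and diplotene markers, 7 fell in ClpP cKO, and 9 fell and 1 rose in ClpX cKO. Of 12 early prophase markers, 7 rose in each knockout, while 1 fell in ClpP cKO and 2 in ClpX cKO. Spermatogonial markers rose in 8 of 12 cases in ClpP cKO and 10 of 12 in ClpX cKO, where 1 fell. They summed to 83.1 to 91.5, 112 to 128 and 129 to 159 FPKM. Over all tested genes 44.7% and 65.6% were called as risen or fallen. General germ cell markers such as Ddx4 and Dazl summed to 948 to 990, 804 to 836 and 693 to 796 FPKM, and Dppa3 among them was listed at 0 in all 3 controls. They did not move together: of 5 tested, 2 rose and 1 fell in ClpP cKO, and 1 rose and 2 fell in ClpX cKO. No other marker of these lists was at 0 in all 3 libraries of a group. The part of these markers in the changes of the TIM and TOM genes was not tested, and in bulk samples fewer cells of a type and less RNA per cell cannot be told apart.

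In the controls the members spanned a wide range. Timm8b was the highest at 137 FPKM and Tomm22 the second at 112, and together they gave 44.6 to 47.5% of the summed FPKM of all 25 members. The next were Tomm20l (45.7), Tomm7 (30.5), Tomm34 (29.0) and Timm23 (25.8), whose control libraries overlapped among Tomm7, Tomm34 and Timm23. The lowest tested member was Timm8a1 at 1.41. The summed FPKM of all members was 519 to 572 in control, 458 to 500 in ClpP cKO and 472 to 505 in ClpX cKO, so each knockout lay below the controls on the deposited scale. With every library scaled by its own sum of gene reads (own totals below), this no longer held: the sums were 474 to 521, 476 to 524 and 512 to 547. Without Timm8b and Tomm22 the deposited sums overlapped, at 272 to 317, 270 to 301 and 289 to 321.

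**Figure D1:**
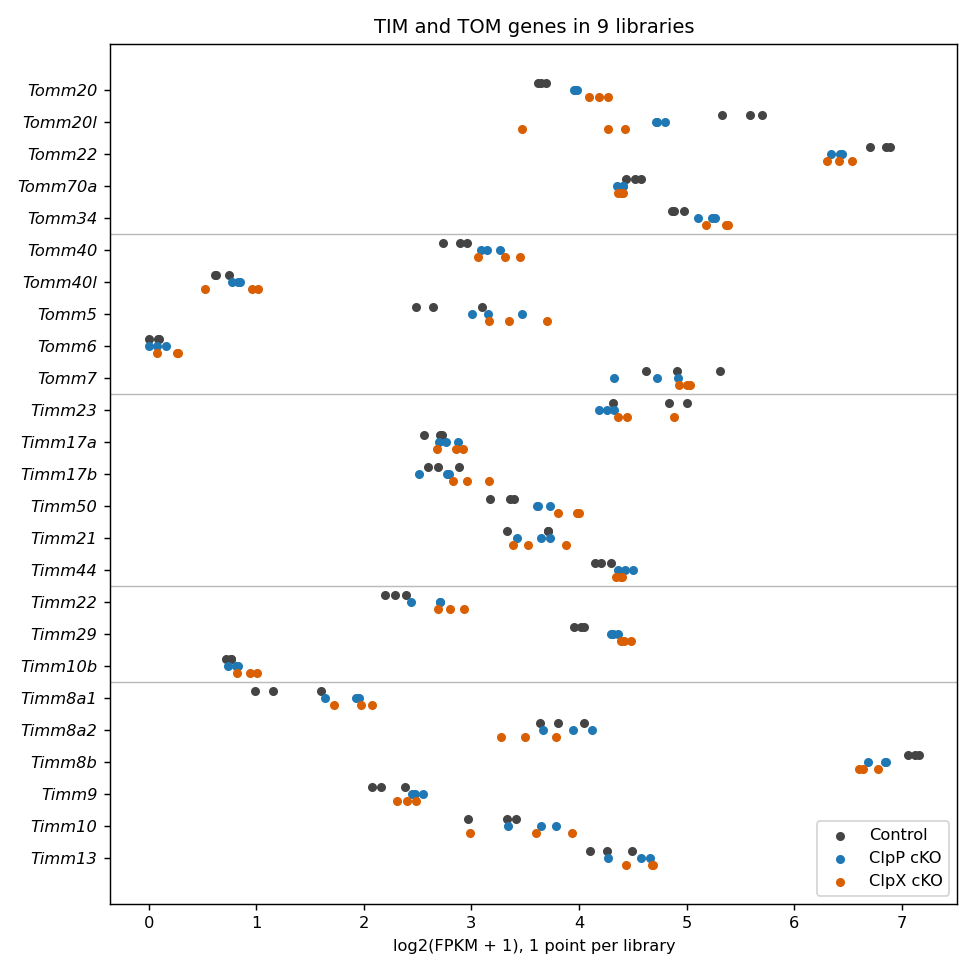
Level of each TIM and TOM gene, as log2(FPKM + 1) on the horizontal axis with 1 point per library, ordered by role from the TOM receptors at the top to the small TIM chaperones at the bottom (black control, blue ClpP cKO, orange ClpX cKO). Timm8b and Tomm22 lie far to the right, and Tomm20l has 3 groups that do not overlap, from 39.3 to 50.9 FPKM in control to 10.1 to 20.5 in ClpX cKO.

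In ClpP cKO against control, 8 of the 22 tested members rose, 3 fell and 11 did not pass. Those called were 50.0% of the tested members, against 44.7% of all tested genes (20.7% rose and 24.0% fell). In ClpX cKO against control, 8 rose, 3 fell and 11 did not pass, where 65.6% of all genes were called (32.1% rose and 33.5% fell). The median log2 change of the members was 0.21 in ClpP cKO and 0.23 in ClpX cKO, against medians of 0.01 and -0.00 over all tested genes and 0.08 and 0.11 over protein-coding ones. The members' medians were 0.39 and 0.42 by own totals, where the medians over all tested genes were 0.16 and 0.18. They were 0.41 and 0.48 by limma voom, a count model run on reads recovered from the FPKM, against 0.20 and 0.22 over all genes. Voom used the same own totals as library sizes, so it is not a separate check of the scaling. The ClpX cKO median of the members was 0.13 without Control 3. With no filter on low values, where 41170 genes were tested, the ClpP cKO calls of Tomm20l (adjusted p = 0.055), Timm22 (0.073), Timm8a1 (0.065) and Timm9 (0.090) were lost. The 3 knockout libraries did not overlap the 3 controls for 13 members in ClpP cKO and 13 in ClpX cKO, where 61.7% and 69.8% of all genes did not overlap. Thus on the deposited scale the share of members called lay near the background in ClpP cKO and below it in ClpX cKO, which was not tested. By own totals 12 members rose and 1 fell in ClpP cKO, where 48.6% of all genes were called. In ClpX cKO 13 rose and 2 fell by own totals, where 67.4% of all genes were called. Both comparisons use the same 3 controls, so their values below stand side by side and are not independent of each other.

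**Figure D2:**
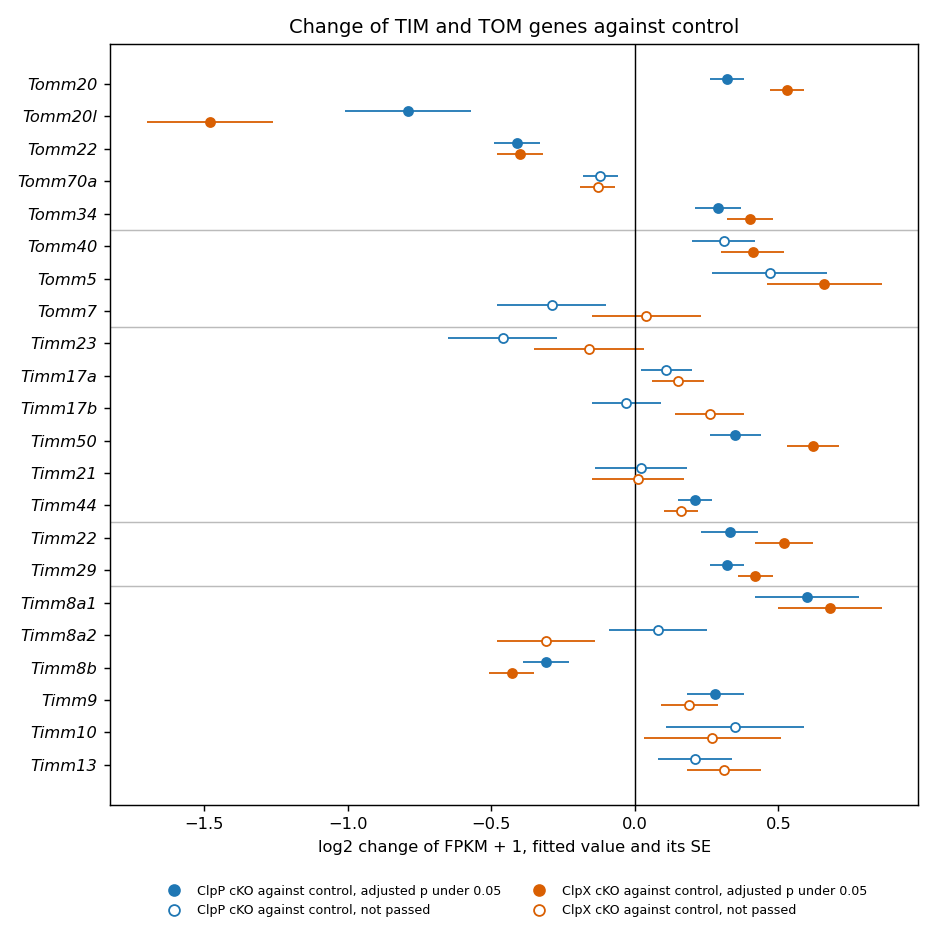
Fitted log2 change of FPKM + 1 of each tested member against control, with its SE as a bar, for ClpP cKO (blue) and ClpX cKO (orange), where filled points have a limma adjusted p under 0.05. Tomm20l has the lowest values (-0.79 and -1.48), and the filled points of Tomm22 and Timm8b to the left of 0 depend on the scaling. Under quantile normalization none of the 4 is called, and by own totals only Timm8b in ClpX cKO is. With median-of-ratios scaling, described with the other scalings below, all 4 stay called, but its factors of 0.995 to 1.01 leave the deposited values nearly unchanged.

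The receptors of the TOM complex moved in opposite directions. Tomm20, which recognises presequences, and Tomm34, a cytosolic cochaperone that accompanies precursors, rose in both knockouts, while Tomm20l, a paralogue of Tomm20, fell. Tomm22, the central receptor that links the channels, also fell as deposited, but not under quantile normalization or by own totals, nor in ClpX cKO by voom. Tomm70a, the receptor for carrier precursors, did not pass.

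Tomm20 (ENSMUSG00000093904, GRCm38 chromosome 8, 126930667 to 126945844, minus strand) was at 11.3, 11.5 and 11.9 FPKM in control, 14.6, 14.8 and 14.5 in ClpP cKO and 16.1, 17.2 and 18.3 in ClpX cKO. No group overlapped another, and the order ran from control through ClpP cKO to ClpX cKO. The log2 change was 0.32 (SE 0.06, adjusted p = 0.0098) in ClpP cKO and 0.53 (SE 0.06, adjusted p = 4.6e-04) in ClpX cKO. Tomm20l (ENSMUSG00000021078, chromosome 12, 71111428 to 71123221, plus strand) ran the other way, at 50.9, 39.3 and 47.0 FPKM in control, 26.8, 25.2 and 25.4 in ClpP cKO and 18.3, 10.1 and 20.5 in ClpX cKO. Its 3 groups did not overlap either, and ClpX cKO 2 was the lowest library of all. The fitted change was -0.79 (SE 0.22, adjusted p = 0.022) in ClpP cKO and -1.48 (SE 0.22, adjusted p = 7.3e-04) in ClpX cKO. The ClpP cKO call of Tomm20l was lost without Control 1 (-0.71, adjusted p = 0.071), Control 3 (-0.77, 0.052), ClpP cKO 2 (-0.78, 0.066) or ClpP cKO 3 (-0.78, 0.062), and under quantile normalization (-0.54, 0.092). Tomm20l and Timm9 are neighbours on chromosome 12 and share 49 exonic bases on opposite strands, which is a small part of either gene.

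The promoters of these paralogues are shown because the pair moved apart. Each line gives the 250 bases before the RefSeq start (GRCm38.p6), 5′ to 3′ on the gene's strand, with every CG in capitals. The Tomm20 stretch is chr8:126945922-126946171 on the minus strand and the Tomm20l stretch is chr12:71111178-71111427 on the plus strand.
Tomm20: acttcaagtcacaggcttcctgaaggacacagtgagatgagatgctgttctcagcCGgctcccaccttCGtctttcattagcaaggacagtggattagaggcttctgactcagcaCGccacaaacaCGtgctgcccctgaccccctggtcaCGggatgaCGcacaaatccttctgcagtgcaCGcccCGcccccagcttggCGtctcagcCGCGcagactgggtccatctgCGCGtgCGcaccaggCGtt
Tomm20l: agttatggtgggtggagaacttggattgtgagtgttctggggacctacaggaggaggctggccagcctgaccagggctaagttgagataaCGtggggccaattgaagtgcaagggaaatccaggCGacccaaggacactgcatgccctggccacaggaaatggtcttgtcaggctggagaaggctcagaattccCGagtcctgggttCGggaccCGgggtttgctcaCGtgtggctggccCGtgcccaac
The Tomm20 stretch holds 15 CG pairs and the Tomm20l stretch 7. Over the full window of 300 bases, which adds 50 bases after the start, the observed over expected CG ratio was 0.808 for Tomm20 and 0.493 for Tomm20l, against a median of 0.567 over 21262 protein-coding promoters. These counts describe the reference sequence, and methylation was not measured.

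Within each library the ratio of Tomm20 to Tomm20l does not depend on any single factor by which that library was scaled. Quantile normalization is not such a factor and can change the ratio. It was 0.222, 0.293 and 0.252 in the controls, 0.546, 0.587 and 0.570 in ClpP cKO and 0.877, 1.70 and 0.891 in ClpX cKO. The 3 groups did not overlap, and ClpX cKO 2 was the one library where Tomm20 was above Tomm20l. The mean log2 ratio was 1.16 higher in ClpP cKO than in control, 2.11 higher in ClpX cKO than in control and 0.96 higher in ClpX cKO than in ClpP cKO. Each gave p = 0.10 by a two-sided exact permutation test, the smallest that 3 against 3 libraries allow, and an adjusted p of 0.26 over the 18 tests of 6 pairs of members.

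Tomm22 (ENSMUSG00000022427, chromosome 15, 79670861 to 79673400, plus strand) was at 118, 103 and 115 FPKM in control, 85.1, 86.2 and 80.0 in ClpP cKO and 91.8, 78.1 and 84.5 in ClpX cKO. All 6 knockout libraries lay below the controls, and the knockouts overlapped each other. The log2 change was -0.41 (SE 0.08, adjusted p = 0.0098) in ClpP cKO and -0.40 (SE 0.08, adjusted p = 0.0031) in ClpX cKO, but under quantile normalization it was -0.03 and 0.13 and was not called. Tomm22 was not called by own totals either (-0.23, adjusted p = 0.052 in ClpP cKO and -0.17, 0.098 in ClpX cKO), nor in ClpX cKO by voom (-0.17, 0.093). Tomm34 (ENSMUSG00000018322, chromosome 2, 164053540 to 164071169, minus strand) was at 28.5, 30.4 and 28.2 FPKM in control, 33.4, 36.7 and 37.3 in ClpP cKO and 35.2, 40.9 and 40.3 in ClpX cKO. It lay above the controls in all 6 knockout libraries. The change was 0.29 (SE 0.08, adjusted p = 0.019) in ClpP cKO and 0.40 (SE 0.08, adjusted p = 0.0021) in ClpX cKO. The ClpP cKO call of Tomm34 was lost without Control 1 (adjusted p = 0.061), Control 3 (0.050), ClpP cKO 2 (0.066) or ClpP cKO 3 (0.067), with changes of 0.26 to 0.28. Tomm70a was at 20.7 to 22.9 FPKM in control, 19.4 to 20.3 in ClpP cKO and 19.6 to 20.2 in ClpX cKO. It did not overlap the controls in either knockout, yet the changes of -0.12 and -0.13 did not pass (adjusted p = 0.12 and 0.085), and Tomm70a was at 0.05 and 0.09 by own totals.

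Promoters of TIM and TOM genes were searched for an ETS core, the letters CCGGAAG on either strand. It was present in the 300-base windows of 9 of the 22 members with a RefSeq promoter (Timm10, Tomm34, Timm10b, Timm29, Timm8b, Timm23, Timm8a2, Tomm22 and Tomm70a), and in 11.6% of 21262 protein-coding windows. The members that hold it include genes that fell on the deposited scale (Tomm22, Timm8b), rose (Tomm34, Timm29) and did not pass (Tomm70a). The stretches of Tomm22 (chr15:79670618-79670867, plus strand) and Tomm34 (chr2:164071170-164071419, minus strand, from 1 of 2 listed starts) are shown as members that carry the core and moved in opposite directions on the deposited scale. The core is in capitals.
Tomm22: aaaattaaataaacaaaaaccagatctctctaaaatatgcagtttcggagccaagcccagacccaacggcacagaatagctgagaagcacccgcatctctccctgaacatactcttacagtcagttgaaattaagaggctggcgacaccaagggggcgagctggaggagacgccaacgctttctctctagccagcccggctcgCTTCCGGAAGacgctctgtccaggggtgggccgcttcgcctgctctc
Tomm34: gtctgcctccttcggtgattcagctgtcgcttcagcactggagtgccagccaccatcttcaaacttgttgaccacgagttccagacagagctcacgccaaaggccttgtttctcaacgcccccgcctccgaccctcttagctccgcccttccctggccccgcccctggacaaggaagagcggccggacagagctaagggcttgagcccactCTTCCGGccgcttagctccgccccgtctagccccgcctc
In Tomm22 the capitals are 2 overlapping matches on opposite strands, and in Tomm34 a single match on the other strand. The last 7 bases of the Tomm22 stretch lie inside the gene as the table gives it. The other 3 sets of letters were in 0 of the 22 members' windows, namely NRF1 (GCGCATGCGC, in 1.33% of protein-coding windows), CRE (TGACGTCA, 2.23%) and an ATF4 element (TGATGNAA, 3.60%). The MYB letters CNGTTG were in 9 of 22 members and 34.1% of windows. A match is a description of the letters and not a measured site.

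The channel and small subunits of TOM had 3 of 5 members tested, of which 0 passed in ClpP cKO (2 at an unadjusted p under 0.05, which 54.5% of all genes had) and 2 rose in ClpX cKO. Tomm40 (ENSMUSG00000002984, chromosome 7) forms the channel itself. It was at 6.44, 6.75 and 5.67 FPKM in control, 7.52, 7.86 and 8.61 in ClpP cKO and 7.33, 8.95 and 9.97 in ClpX cKO. Every knockout library lay above the controls. The log2 change was 0.31 (SE 0.11, adjusted p = 0.053) in ClpP cKO, which did not pass, and 0.41 (SE 0.11, adjusted p = 0.011) in ClpX cKO. In ClpP cKO it passed when ClpX cKO 1 (adjusted p = 0.019) or ClpX cKO 3 (0.039) was left out of the shared estimate of the spread, with only the 6 libraries compared (0.025), with protein-coding genes only (0.038) or with a mean FPKM of at least 5 (0.043). By own totals Tomm40 in ClpP cKO was at 0.47 (0.013) and by voom at 0.53 (0.0082), both past the threshold, and without Control 3 and ClpX cKO 1 together it was at 0.24 (0.048).

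Tomm5, a small subunit that helps precursors onto the channel, was at 7.56, 4.60 and 5.24 FPKM in control, 7.01, 10.1 and 7.91 in ClpP cKO and 7.93, 9.21 and 12.0 in ClpX cKO. Control 1 was the highest control, above ClpP cKO 1. The change was 0.47 (SE 0.20, adjusted p = 0.082) in ClpP cKO and 0.66 (SE 0.20, adjusted p = 0.017) in ClpX cKO. Without Control 1 the ClpP cKO value was 0.65 and passed (adjusted p = 0.045), as it did by own totals (0.63, 0.031) and voom (0.72, 0.033), while the ClpX cKO call was lost without Control 2 (0.53, 0.061) or ClpX cKO 3 (0.51, 0.065). Tomm7, a small subunit that acts on the stability of the complex, was at 23.6 to 38.7 FPKM in control, 19.0 to 29.2 in ClpP cKO and 29.4 to 31.6 in ClpX cKO. Each knockout overlapped the controls and neither change passed (-0.29 and 0.04), while the knockouts did not overlap each other.

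Tomm40l, a paralogue of Tomm40, was at 0.530 to 0.676 FPKM in control, 0.713 to 0.797 in ClpP cKO and 0.439, 0.946 and 1.02 in ClpX cKO. The ratio of Tomm40 to Tomm40l was between 9.46 and 16.7 in every library, and its log2 difference from control was -0.05 in ClpP cKO and 0.10 in ClpX cKO (p = 0.70 and 1.0, two-sided exact permutation tests). Tomm40l shares 64.3% of its exonic bases with Nr1i3 on the opposite strand, and Nr1i3 was at 0 to 0.0582 FPKM. Tomm6 had 0 to 2 reads in control and ClpP cKO libraries and 1, 4 and 4 reads in ClpX cKO. The 0 reads in Control 2 and ClpP cKO 1 allow up to 3 reads, or 0.174 and 0.154 FPKM, for counting error only. Tomm6 shares 84.2% of its exonic bases with the genes annotated across it, so its reads may have been assigned elsewhere, and no comparison is made.

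Of the 6 TIM23 genes, 2 rose in ClpP cKO (Timm50 and Timm44), 1 rose in ClpX cKO (Timm50), and the others did not pass. Timm50 (ENSMUSG00000003438, chromosome 7, 28305516 to 28312072, minus strand) encodes the receptor that takes presequences from TOM. It was at 8.04, 9.51 and 9.27 FPKM in control, 11.2, 11.3 and 12.3 in ClpP cKO and 13.0, 14.8 and 15.0 in ClpX cKO. The 3 groups did not overlap, with ClpX cKO the highest. The log2 change was 0.35 (SE 0.09, adjusted p = 0.015) in ClpP cKO and 0.62 (SE 0.09, adjusted p = 5.6e-04) in ClpX cKO. Timm50 was no longer called in ClpP cKO without Control 1 (0.28, adjusted p = 0.053) or ClpP cKO 3 (0.31, 0.057).

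Timm44 (ENSMUSG00000002949, chromosome 8, 4259731 to 4275913, minus strand) anchors the matrix chaperone that pulls proteins in. It was at 17.4, 18.6 and 16.7 FPKM in control, 19.6, 21.6 and 20.5 in ClpP cKO and 20.1, 20.0 and 19.3 in ClpX cKO. All 6 knockout libraries were above the controls, by a small margin. The change was 0.21 (SE 0.06, adjusted p = 0.028) in ClpP cKO and 0.16 (SE 0.06, adjusted p = 0.051) in ClpX cKO, which did not pass. Timm44 was no longer called in ClpP cKO without Control 1 (adjusted p = 0.080), Control 3 (0.080), ClpP cKO 2 (0.10) ClpP cKO 3 (0.077) or without Control 3 and ClpX cKO 1 together (0.059). In ClpX cKO the value of Timm44 was larger and passed under quantile normalization (0.32, adjusted p = 0.0035), by own totals (0.38, 9.7e-04) and by voom (0.40, 8.6e-04), and it also passed without Control 2 (0.20, 0.044) or with a mean FPKM of at least 5 (0.16, 0.044).

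The channel genes of TIM23 did not pass in either knockout on the deposited scale. Timm23, the channel subunit that names the complex, was at 31.0, 27.6 and 18.9 FPKM in control, 17.2, 19.1 and 18.1 in ClpP cKO and 28.5, 19.5 and 20.8 in ClpX cKO. Control 3 lay far below the other controls, and ClpX cKO 1 far above the others of its group, and these are the libraries that also stood apart over all genes. The change was -0.46 (SE 0.19, adjusted p = 0.074) in ClpP cKO and -0.16 (SE 0.19, adjusted p = 0.48) in ClpX cKO. Without Control 3 the ClpP cKO value was -0.66 and passed (adjusted p = 0.019), as it did at -0.46 without ClpX cKO 1 (0.045). Without both libraries the values were -0.66 (0.0016) and -0.52 (0.0017). Timm23 is uncertain for another reason: 57.5% of its stretches of 50 bases also occur in other genes, mainly Gm10273 and pseudogenes, whose 3 closest copies were at 0.158 to 1.25 FPKM.

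Timm17a and Timm17b are alternative partners of Timm23 in the channel. Timm17a was at 4.89 to 5.63 FPKM in control, 5.48 to 6.34 in ClpP cKO and 5.41 to 6.55 in ClpX cKO, and Timm17b was at 5.05 to 6.39, 4.71 to 5.91 and 6.10 to 7.98. In neither gene did the knockouts separate from the controls. The ratio of Timm17a to Timm17b was 0.868 to 1.04 in control, 0.976 to 1.16 in ClpP cKO and 0.821 to 0.922 in ClpX cKO. The knockouts did not overlap each other, with mean log2 ratios of -0.19 in ClpX cKO and 0.10 in ClpP cKO (difference -0.29, p = 0.10, two-sided exact permutation test, adjusted p = 0.26). Timm17b in ClpX cKO had a change of 0.26 (adjusted p = 0.087), which passed without ClpX cKO 1 (0.34, 0.044), by own totals (0.46, 0.011) and by voom (0.53, 0.0097). Timm17a passed in both knockouts by own totals (0.27, adjusted p = 0.044 in ClpP cKO and 0.34, 0.011 in ClpX cKO) and by voom (0.31, 0.031 and 0.40, 0.0059). Taken relative to the median of all genes, the own-total values of Timm17a were 0.11 and 0.16. Timm21, which helps to couple TOM and TIM23, was at 9.04 to 12.1, 9.75 to 12.3 and 9.43 to 13.7 FPKM, and its changes of 0.02 and 0.01 did not pass.

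Both tested genes of the TIM22 complex, the insertase for carrier proteins, rose in each knockout. Timm22 (ENSMUSG00000020843, chromosome 11, 76406952 to 76416292, plus strand), its channel subunit, was at 4.23, 3.58 and 3.90 FPKM in control, 5.53, 4.42 and 5.54 in ClpP cKO and 5.46, 6.60 and 5.97 in ClpX cKO. The controls were the lowest, and ClpP cKO 2 was close to them. The change was 0.33 (SE 0.10, adjusted p = 0.034) in ClpP cKO and 0.52 (SE 0.10, adjusted p = 0.0028) in ClpX cKO. In ClpP cKO the call of Timm22 was lost without Control 1 (0.38, adjusted p = 0.054), Control 2 (0.28, 0.10), Control 3 (0.33, 0.071), ClpP cKO 1 (0.28, 0.093) or ClpP cKO 3 (0.28, 0.11).

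Timm29 (ENSMUSG00000048429, chromosome 9, 21592722 to 21595970, plus strand), a subunit of TIM22 that contacts TOM, was at 15.2, 14.5 and 15.5 FPKM in control, 18.6, 18.9 and 19.6 in ClpP cKO and 19.9, 21.3 and 20.4 in ClpX cKO. Its 3 groups did not overlap and were each tight. The log2 change was 0.32 (SE 0.06, adjusted p = 0.0088) in ClpP cKO and 0.42 (SE 0.06, adjusted p = 5.6e-04) in ClpX cKO, and it was called without any 1 library. Timm10b, the small TIM that is bound to TIM22, was at 0.640 to 0.702 FPKM in control, 0.663 to 0.772 in ClpP cKO and 0.762 to 1.01 in ClpX cKO. It was below the level tested, and 22.1% of its exonic bases are shared with other genes.

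The small TIM chaperones did not move as 1 group. Of 6 tested, 2 rose in ClpP cKO (Timm8a1 and Timm9) and 1 in ClpX cKO (Timm8a1), while 1 (Timm8b) fell in each as deposited. Timm8b (ENSMUSG00000039016, chromosome 9, 50603910 to 50605320, plus strand) was at 138, 142 and 132 FPKM in control, 102, 114 and 115 in ClpP cKO and 109, 96.1 and 99.0 in ClpX cKO. All 6 knockout libraries lay below the controls on this scale. The change was -0.31 (SE 0.08, adjusted p = 0.015) in ClpP cKO and -0.43 (SE 0.08, adjusted p = 0.0015) in ClpX cKO, against 0.12 and 0.14 under quantile normalization, which did not pass (0.23 and 0.15). In ClpP cKO Timm8b was at -0.13 both by own totals (adjusted p = 0.15) and by voom (0.19), and neither passed. Timm8b shares 15.6% of its exonic bases with Nkapd1 on the opposite strand, which was at 4.58 to 6.99 FPKM.

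Timm8a1 (ENSMUSG00000048007, chromosome X, 134537256 to 134541865, minus strand) is the mouse counterpart of the gene mutated in the human deafness-dystonia syndrome, and its product works with Timm13. It was at 1.23, 2.03 and 0.981 FPKM in control, 2.12, 2.80 and 2.88 in ClpP cKO and 2.92, 2.29 and 3.22 in ClpX cKO, from 19 to 78 reads a library. Control 2 was nearly as high as ClpP cKO 1, but the knockouts did not overlap the controls. The change was 0.60 (SE 0.18, adjusted p = 0.026) in ClpP cKO and 0.68 (SE 0.18, adjusted p = 0.0090) in ClpX cKO. The ClpP cKO call of Timm8a1 was lost without Control 1 (0.55, adjusted p = 0.079), Control 3 (0.46, 0.074), ClpP cKO 2 (0.55, 0.083) or ClpP cKO 3 (0.54, 0.084), and the ClpX cKO call without Control 3 and ClpX cKO 1 together (0.52, 0.058). A pseudogene, Gm9797, holds 41.0% of the 50-base stretches of Timm8a1 and was at 0 to 0.684 FPKM, so the values of Timm8a1 are uncertain where such reads were split.

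Timm8a2, the paralogue of Timm8a1 on chromosome 14, was at 11.4 to 15.5 FPKM in control, 11.7 to 16.4 in ClpP cKO and 8.65 to 12.8 in ClpX cKO. Its changes of 0.08 and -0.31 did not pass (adjusted p = 0.70 and 0.13). The ratio of Timm8a1 to Timm8a2 was 0.0795, 0.155 and 0.0860 in control, 0.182, 0.171 and 0.199 in ClpP cKO and 0.338, 0.179 and 0.311 in ClpX cKO. Each knockout lay above all controls, while the knockouts overlapped each other. The mean log2 ratio was 0.85 higher in ClpP cKO and 1.38 higher in ClpX cKO than in control (p = 0.10 each, two-sided exact permutation test, adjusted p = 0.26), and ClpX cKO was 0.53 above ClpP cKO (exact permutation p = 0.30, adjusted p = 0.49).

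Timm9 and Timm10 form the main chaperone ring for carriers. Timm9 (chromosome 12, 71123173 to 71136684, minus strand) was at 4.22, 3.47 and 3.20 FPKM in control, 4.56, 4.85 and 4.46 in ClpP cKO and 4.27, 3.94 and 4.59 in ClpX cKO. It did not overlap the controls in ClpP cKO and did in ClpX cKO. The log2 change was 0.28 (SE 0.10, adjusted p = 0.043) in ClpP cKO, the call nearest to the threshold, and 0.19 (SE 0.10, adjusted p = 0.12) in ClpX cKO. The ClpP cKO call of Timm9 was lost without Control 2 (adjusted p = 0.11), Control 3 (0.12), ClpP cKO 1 (0.081), ClpP cKO 2 (0.13), ClpP cKO 3 (0.085) or ClpX cKO 2 (0.052), and with only the 6 libraries compared (0.052). In ClpX cKO Timm9 passed without Control 1 (0.28, adjusted p = 0.035), by own totals (0.37, 0.0088) and by voom (0.46, 0.0074).

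Timm10 was at 6.84 to 9.64 FPKM in control, 9.10 to 12.8 in ClpP cKO and 6.92, 11.1 and 14.3 in ClpX cKO, where ClpX cKO 1 lay with the controls. Its changes of 0.35 and 0.27 did not pass (adjusted p = 0.24 and 0.34), and without ClpX cKO 1 the second was 0.53 and passed (0.032). The ratio of Timm9 to Timm10 was between 0.320 and 0.617 in all libraries, and differed by -0.03 (log2) in ClpP cKO and -0.06 in ClpX cKO from control (p = 1.0 and 0.90, two-sided exact permutation tests). Timm13, the partner of Timm8a1, was at 16.2 to 21.5, 18.3 to 24.2 and 20.7 to 24.7 FPKM. Its changes of 0.21 and 0.31 did not pass (adjusted p = 0.21 and 0.064), and in ClpX cKO it passed without Control 1 (0.42, 0.030), ClpP cKO 1 (0.31, 0.043) or ClpX cKO 1 (0.40, 0.038). Timm13 also passed in ClpX cKO under quantile normalization (0.50, adjusted p = 0.011), and in both knockouts by own totals (0.39, 0.039 and 0.53, 0.0070) and voom (0.40, 0.038 and 0.55, 0.0053). The ratio of Timm8a1 to Timm13 was 0.0570 to 0.112 in control, 0.116 to 0.123 in ClpP cKO and 0.0929 to 0.141 in ClpX cKO. It was 0.71 (log2) higher in ClpP cKO and 0.72 higher in ClpX cKO (p = 0.10 and 0.20, two-sided exact permutation tests, adjusted p = 0.26 and 0.40).

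**Figure D3:**
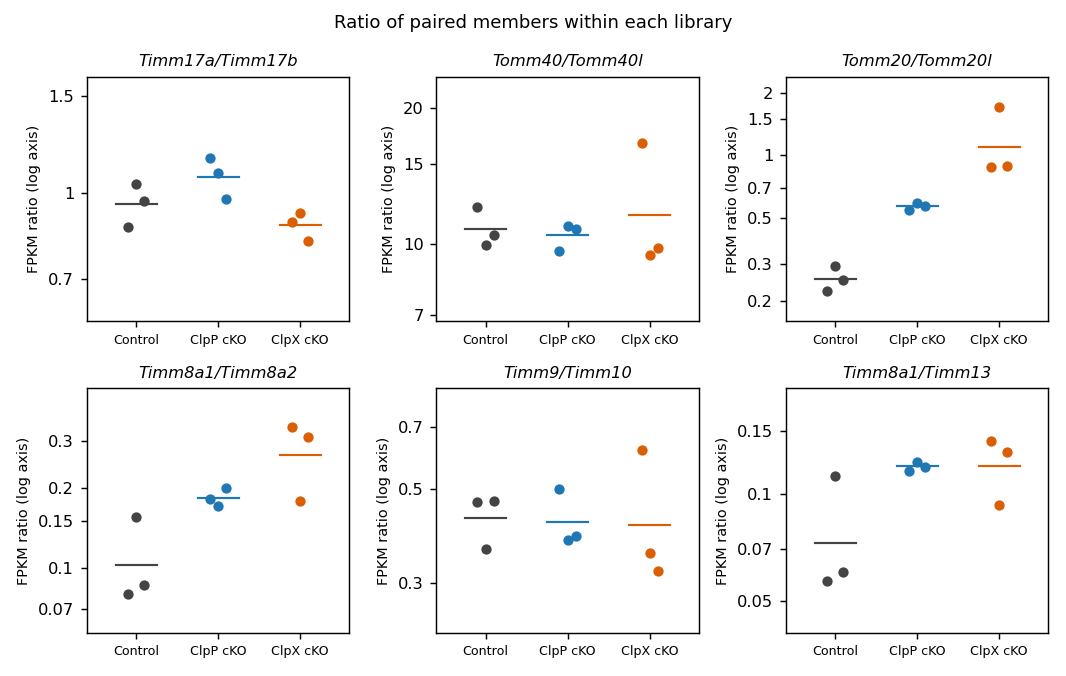
FPKM ratio of 6 pairs of members within each library on log axes that differ between panels, with points for libraries and a bar for the mean of the log ratios in control, ClpP cKO and ClpX cKO. Tomm20/Tomm20l has 3 groups that do not overlap, from 0.222 to 0.293 in control to 0.877 to 1.70 in ClpX cKO, while the Timm9/Timm10 groups overlap.

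Between the knockouts, 0 of the 22 members passed by limma, where 0.104% of all tested genes were called. By limma voom 0 passed, where 4.80% of all tested genes were called. At an unadjusted p under 0.05 there were 5 (Tomm20, Tomm20l, Timm50, Timm17b and Timm8a2), against 27.8% of all genes. The groups did not overlap for 7 members (Tomm20, Tomm20l, Tomm7, Timm23, Timm17b, Timm50 and Timm29), against 29.9% of all genes. Tomm20 was 0.21 higher in ClpX cKO (log2, 95% interval 0.07 to 0.36, adjusted p = 0.099) and Timm50 was 0.27 higher (0.08 to 0.47, 0.10). Tomm20l had a difference of -0.69 (-1.19 to -0.18, 0.11). The difference of Tomm22 was 0.02 (-0.17 to 0.20) and that of Timm8b was -0.12 (-0.29 to 0.06), and a missed threshold does not show that the knockouts act alike. Without ClpX cKO 1, Tomm20 (0.26, adjusted p = 0.017) and Timm50 (0.34, 0.024) passed, and the count over all genes went from 18 to 4758, or 27.6% of them.

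How libraries were scaled touched most of the members that fell and several that had not passed. The per-million denominator behind the deposited FPKM was 0.919 ± 0.0280 times the reads summed over all genes of that library in control, 1.05 ± 0.00370 in ClpP cKO and 1.07 ± 0.0174 in ClpX cKO (SD, n = 3 each). Scaling by own totals moved the median of all genes to 0.16 in ClpP cKO and 0.18 in ClpX cKO, and the counts of members to 12 up and 1 down in ClpP cKO and 13 up and 2 down in ClpX cKO. By own totals 48.6% and 67.4% of all genes were called, and 71.4% and 63.3% of those calls were increases. Quantile normalization gave 8 up and 0 down, and 10 up and 1 down, the last being Tomm20l. Under it 38.7% and 63.6% of all genes were called. Median-of-ratios scaling divides each library by the median ratio of its genes to their geometric means over the libraries. Its factors were 0.995 to 1.01, so it left the deposited values nearly unchanged and is not a separate check of them. It gave 8 up and 3 down in each knockout, where 44.4% and 65.6% of all genes were called. There Timm8b was at -0.33 (limma adjusted p = 0.013) in ClpP cKO and -0.44 (0.0013) in ClpX cKO. Tomm22 was at -0.42 (0.0096) and -0.40 (0.0031). Relative to the median of all genes, Tomm22 in ClpP cKO was at -0.42 as deposited, -0.39 by own totals and -0.10 under quantile normalization, and Timm8b was at -0.32, -0.29 and 0.05. In ClpX cKO the values were -0.40, -0.35 and 0.04 for Tomm22, and -0.43, -0.39 and 0.05 for Timm8b. Tomm20l stayed at -0.80, -0.77 and -0.61 in ClpP cKO, and its ClpX cKO values were -1.48, -1.45 and -1.31. Tomm20 was at 0.31, 0.33 and 0.28 in ClpP cKO, with 0.53, 0.56 and 0.53 for ClpX cKO.

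**Figure D4:**
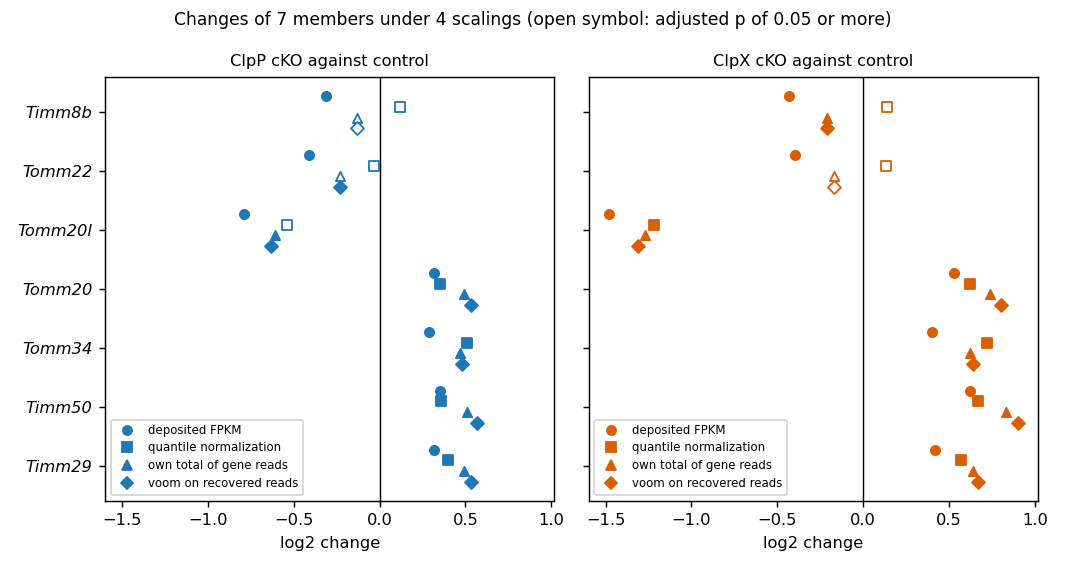
Log2 change of 7 members against control under the deposited FPKM scaling, quantile normalization, scaling by each library's own total, and limma voom on recovered reads, with open symbols for an adjusted p of 0.05 or more. Voom used the same own totals, and median-of-ratios scaling is not shown. Tomm20, Tomm34, Timm50 and Timm29 lie to the right of 0 under all 4, Tomm20l to the left, and Timm8b and Tomm22 cross or approach 0 under quantile normalization.

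Import depends on further genes whose products work beside TIM and TOM, and 25 of these, from 4 lists, were all tested. In ClpP cKO 9 rose and 8 fell, and in ClpX cKO 10 rose and 8 fell, with a median change of 0.01 in each. Those called were 68.0% and 72.0%, against 44.7% and 65.6% of all tested genes and 49.3% and 70.6% of protein-coding ones. Scaling by own totals turned the counts into 14 up and 2 down, and 14 up and 6 down (48.6% and 67.4% of all genes called), and without ClpP cKO 2 the ClpP cKO counts were 4 up and 4 down (20.9% of all genes called). Beside these, the TIM and TOM medians were 0.21 and 0.23, and this difference was not tested. All 6 genes of outer membrane assembly and insertion were called in each knockout, with 4 up and 2 down, although the 2 decreases in ClpP cKO, Mtx1 and Mtch2, were not called under quantile normalization (-0.10 and -0.08), own totals (-0.19 and -0.17) or voom (-0.20 and -0.18). Mtx1, a partner of the sorting machinery, had log2 changes of -0.37 in ClpP cKO (SE 0.09, adjusted p = 0.015) and -0.65 in ClpX cKO (SE 0.09, adjusted p = 5.9e-04). Mtx3, its paralogue, rose by 0.46 (SE 0.09, adjusted p = 0.0089) and 0.59 (SE 0.09, adjusted p = 6.6e-04). Of the outer membrane proteins Mtch1 and Mtch2, Mtch1 rose (0.48 and 0.82) and Mtch2 fell (-0.35 and -0.56). In ClpP cKO the call of Mtx1 was lost without Control 1 (adjusted p = 0.052) or ClpP cKO 2 (0.054), and that of Mtch1 without ClpP cKO 2 (0.055) or ClpP cKO 3 (0.051).

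Among 8 motor genes 2 rose and 2 fell in each knockout, and by own totals 4 rose and 1 fell in each. Dnajc15, a J protein of the motor, fell by 0.39 (SE 0.08, adjusted p = 0.0095) and 0.59 (SE 0.08, adjusted p = 4.9e-04). Dnlz, which keeps the matrix chaperone soluble, rose by 0.52 and 0.55, and the nucleotide exchange factor Grpel2 rose by 0.49 and 0.59. Of 4 genes of intermembrane space and inner membrane insertion, 2 rose and 1 fell in ClpP cKO, and 3 rose and 1 fell in ClpX cKO. Of 7 presequence proteases 1 rose and 3 fell in each, a balance that turned by own totals and by voom, with 3 up and 1 down in ClpP cKO and 3 up and 2 down in ClpX cKO under both. Mipep, the intermediate peptidase of the matrix, changed by -0.67 in ClpP cKO (SE 0.13, adjusted p = 0.0098) and by -1.08 in ClpX cKO (SE 0.13, adjusted p = 4.7e-04), from 45.2 to 48.5 FPKM in control.

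**Figure D5:**
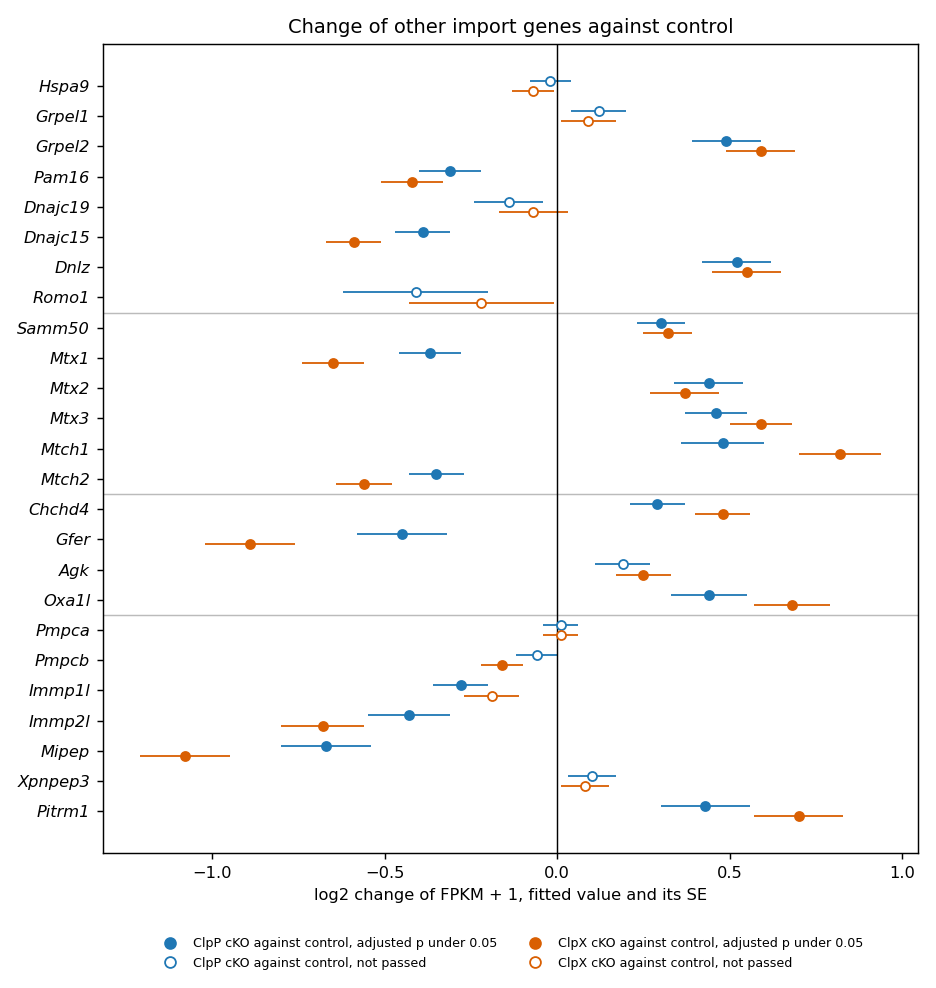
Fitted log2 change of FPKM + 1 with its SE for 25 other import genes against control, ordered from motor genes through outer membrane and insertion genes to presequence proteases, for ClpP cKO (blue) and ClpX cKO (orange), filled where the limma adjusted p is under 0.05. All 6 outer membrane genes are filled in both, 4 to the right of 0 and 2 (Mtx1 and Mtch2) to the left, and Mipep is the farthest to the left at -0.67 and -1.08.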

How the data were processed

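RNA sequencing of 9 libraries in 3 groups of 3 was analysed. The authors deposited FPKM per gene on GRCm38 (mm10, per the submitters' processing notes), beside a column of gene lengths (bases, another unit, per the file headers). The aligner, counter, read length and strand setting are not given in the sources used here. FPKM times gene length gave whole reads for 100% of values (tolerance 0.01 of a step), 14334436 to 17021685 per library.

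Genes with a mean of at least 1 FPKM were fitted as log2(FPKM + 1) with limma 3.58.1 (R 4.3.3), a trended prior and 6 residual degrees of freedom from a single model of the 9 libraries. A gene was called at a two-sided Benjamini-Hochberg adjusted p under 0.05 over all 17266 tested genes. Fold changes of FPKM + 1 understate changes of low genes. Ratios within a library used FPKM without a pseudocount and two-sided exact permutation tests. Every member is named, with up to 5 called genes of the other import lists per comparison (smallest adjusted p), and Clpp and Clpx. Members, lists and tests were chosen with earlier results of these data known. The fit was also run on simulated data in which few genes changed, and only in the ClpP cKO group. The real data differ in this, so that run does not vouch for the calls made here.

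Replicates were not duplicates of each other. Deviations from the group mean in same-numbered libraries of different groups correlated at -0.07 to 0.23. Differently numbered libraries were not compared, so this cannot exclude a pairing by replicate number. Alternatives were pseudocounts, filters, scalings, limma voom on recovered reads with own totals as library sizes, 6-library fits, protein-coding genes only, a replicate block and leaving out each library. Leaving out Control 3 and ClpX cKO 1 together was chosen after seeing the data. Promoters are from RefSeq (22 of 25 members matched by symbol, Tomm7, Tomm40l and Timm21 not), and overlaps between genes from GENCODE. Calculations used Python 3.11.15, pandas 2.3.3 and scipy 1.17.1.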

Additional observations from a re-analysis of the deposited data

How the results depend on the processing

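Over the alternatives, the value of a single TIM or TOM gene in a comparison stayed on its side of the threshold in 1218 cases, gained a call in 43, lost one in 50 and changed direction from a called value in 3. Among the 1218, 48 values that were not called changed sign. The 3 were under quantile normalization, Timm8b in ClpP cKO (0.12) and in ClpX cKO (0.14) and Tomm22 in ClpX cKO (0.13), and the cause was not tested. The 11 members called in ClpP cKO became 7 (5 up, 2 down) with no filter on low values, where 41170 genes were tested and 13.3% were called. They became 4 to 13 when 1 library was left out. There were 4 without ClpP cKO 3 (23.4% of all genes called) and 6 without Control 1 (24.3%), Control 3 (35.7%) or ClpP cKO 2 (20.9%). In ClpX cKO the 11 called members stayed within 1.5 times under every alternative. Between the knockouts 0 to 2 members were called when 1 library was left out, with 2 without ClpX cKO 1 (27.6% of all genes called). There were also 2 without Control 3 and ClpX cKO 1 together (29.8% of all genes called). With the replicate block, which has no stated meaning here, 9 members were called in ClpP cKO (6 up, 3 down), 11 in ClpX cKO and 0 between the knockouts. With that block 45.4%, 65.4% and 0.00579% of all genes were called. Over all genes the 7722 calls in ClpP cKO fell to 3617 when ClpP cKO 2 was left out, 4040 for ClpP cKO 3, 4190 for Control 1 and 4888 for Control 2. The 18 calls between the knockouts became 828 with limma voom, 89 with 6 libraries, 29 with quantile normalization, 27 with a mean FPKM of at least 5, 1 with the replicate block and 0 to 4758 when 1 library was left out, and 5149 without Control 3 and ClpX cKO 1 together. Increases were 46.3% of calls in ClpP cKO and 49.0% in ClpX cKO, against 71.4% and 63.3% when scaled by own totals, 70.1% and 63.3% with voom, and 58.5% and 57.3% under quantile normalization. Of 126 pair ratio differences under the alternatives, 15 changed sign, 5 for Tomm40/Tomm40l (in ClpP cKO from -0.05 to 0.15 with a pseudocount of 1, in ClpX cKO from 0.10 to -0.17 without ClpX cKO 1) and 10 for Timm9/Timm10, and 0 for the other 4 pairs. An exact permutation test of 3 libraries against 3 cannot go below p = 0.10. Depth limits Timm8a1 (19 to 78 reads a library) and Tomm6 (0 to 4 reads).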

Other observations

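Timm8a1 and Timm17b are the members on the X chromosome. Of 526 tested X-linked protein-coding genes, 196 rose and 87 fell in ClpP cKO (median log2 change 0.28), and 326 rose and 114 fell in ClpX cKO (median 0.53). Those called were 53.8% and 83.7%, against 49.3% and 70.6% of all 12827 tested protein-coding genes, whose medians were 0.08 and 0.11. Timm8a1 was at 0.60 and 0.68, above both X-linked medians, and Timm17b was at -0.03 and 0.26, below both X-linked medians. The relation of these members to the other X-linked genes was not tested.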
